A study of Homo sapiens with 16 samples.

Results

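The 2 cell lines JVM-2 and JVM-13 were compared with 6 other lines of the same series, REC-1, SP49, HBL-2, GRANTA-519, Z-138 and Maver-1. All 8 are human B-cell lines that the study treated as a mantle cell lymphoma panel. The members are the 4 arrays of JVM-2 and JVM-13 out of 16 arrays in all, and the 12 arrays of the other 6 lines are the comparison group. The lines were taken by name, with earlier results of these data known, and no measured value entered the grouping rule. Every line was grown in medium with fetal bovine serum (DMEM for GRANTA-519 and RPMI for the rest). Cells received DMSO at 0.025% or 5 uM AFN700 for 20 hours. AFN700 inhibits IKKbeta, a kinase upstream of classical NF-kB. One array was run for each line and treatment. For JVM-13 the labels disagree on the drug: the title gives AFN700, and 2 other fields give AFN701. That array was taken as AFN700. By the labels JVM-2 and JVM-13 are insensitive to "stn" and ibrutinib, as are HBL-2, GRANTA-519, Z-138 and Maver-1, while REC-1 and SP49 are sensitive.

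Mantle cell lymphoma is a B-cell malignancy whose defining lesion places the cyclin D1 gene CCND1 under an immunoglobulin enhancer, and most cases also express SOX11, a neural transcription factor that normal B cells lack. The rare cases without cyclin D1 often express cyclin D2 instead. JVM-2 and JVM-13 are established lines that were derived from patients with B-cell prolymphocytic leukaemia and carry Epstein-Barr virus (EBV), and GRANTA-519 also carries EBV. In B cells EBV can run a growth programme in which its protein LMP1 acts like a constantly active CD40 receptor and switches on NF-kB target genes.

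Values are linear MAS5 probe set intensities, scaled so that each array has a trimmed mean of 150. Log2 differences were taken between line values of log2(intensity + 3.3), with the DMSO and AFN700 arrays of a line averaged, and are given with the moderated standard error (SE) from limma over 2 JVM lines and 6 other lines. Such differences understate changes of genes of low intensity. Adjusted p-values are Benjamini-Hochberg over all 12305 genes tested, with 0.05 as the threshold. Each line stands for 1 culture per treatment, so these p-values measure the spread between lines only. One member array, JVM-13 with DMSO, was dimmer than the rest: its median over the tested genes was 7.25 (log2), and those of the other 15 arrays lay between 7.82 and 8.02. RNA quality, read from the actin 3' over 5' probe ratio, was 2.01 to 3.43 for the JVM arrays and 1.90 to 18.8 for the others, with values above 10 in HBL-2 and Maver-1. The B-cell genes MS4A1, CD79A and PAX5 had intensities of at least 288.7 on all 16 arrays.

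Of the 12305 genes, 180 (1.46%) had higher values in the JVM lines and 215 (1.75%) lower values at an adjusted p under 0.05 (limma), and 2306 had an unadjusted p under 0.05. Both JVM lines lay above all 6 others, with a mean intensity over 100 in the JVM lines, for 857 genes (6.96%), and below all 6 others, with a mean over 100 in the others, for 968 genes (7.87%). Without the minimum of 100 these were 1073 (8.72%) and 1521 (12.4%). The values nearest this rule's edge were gaps of 0.0004 for PDCD2L and 0.0001 for CSRP2 inside, and of -0.0005 for MYCBP2 and -0.0002 for SDF2 outside. The gap between the groups was at least 2-fold for 183 genes above and 170 below, and at least 8-fold for 45 and 46. With every array counted singly, all 4 JVM arrays lay above all 12 others for 389 of the genes above, and below them for 410 of the genes below. Of the 180 genes called higher, 98 had passed the filter on low values only through JVM arrays, and of the 215 called lower, 87 only through arrays of the other lines, so those genes had to differ. Among genes named below they include CDKN2A, KRT7, ELF3, IL12B and TNFRSF8 on the higher side. On the lower side they include SOX11, CD24, DTX1, ROR1, FZD3, HRK, TGFBR2 and CLEC7A. With JVM-13 represented by its AFN700 array alone the calls were 191 higher and 196 lower, and the non-overlap counts 1070 above and 904 below. With each array centred on its median, which moved the median difference over all genes from -0.11 to 0.05, the calls were 199 and 169 and the non-overlap counts 1045 and 713. Without HBL-2 and Maver-1 together only 71 genes were called higher and 109 lower, and without JVM-2 or JVM-13 the remaining JVM line was assumed to vary like the others, with 87 and 135, or 123 and 93, genes called.

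SOX11 was at the floor of the array in both JVM lines. Its intensity was 0.1 and 0.6 in JVM-2 (DMSO, then AFN700) and 1.4 and 0.3 in JVM-13, against 453.1 to 3418.7 with a median of 1534 on the other 12 arrays. The groups did not overlap on any array, and the same held for all 3 SOX11 probe sets. The log2 difference was -8.44 ± 0.61 (SE), with an adjusted p of 0.000235 (limma). It ran from -9.78 to -5.365 over the alternatives, and the call was kept in each. SOX11 is among the 12 genes chosen for the widest gap below, and it passed the filter on low values only through the other lines. The call and its persistence were therefore built in, and the values describe the size of the gap only.

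CCND1 gave different pictures in the 2 JVM lines. The probe set used had intensities of 78.7 and 79.1 in JVM-2 and 4.8 and 2.3 in JVM-13, against 172.3 to 2328.5 with a median of 1796.4 in the others, where HBL-2 was lowest. The log2 difference was -5.75 ± 1.01 (limma adjusted p = 0.0173), and the call was lost without JVM-13 (adjusted p = 0.146). A second CCND1 probe set did not follow this order. It read 588.8 and 673.6 in JVM-2, 1.5 and 3.2 in JVM-13, only 5.2 to 12.4 in REC-1 and SP49, and 905.7 to 2762.3 in the other 4 lines. With this second probe set, which has the larger interquartile range, in place of the first, the difference was -2.38 with an adjusted p of 0.647. Low CCND1 on both probe sets was therefore measured in JVM-13 alone, and JVM-2 had a clear signal on one of them.

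CCND2, the gene of cyclin D2, was high in both JVM lines but not in them alone. Its intensities were 4041.6 and 4004.9 in JVM-2 and 3956.7 and 3866.9 in JVM-13, against 2.6 to 2654.1 with a median of 19.5 in the others. HBL-2, at 2645 as a line value, and GRANTA-519, at 829, came next in the order of levels, and the other 4 lines were between 3.22 and 70.2. The log2 difference of 5.96 ± 2.29 did not pass the threshold (limma adjusted p = 0.212). On another CCND2 probe set the JVM arrays read 303.5 to 619 and the 12 other arrays 0.5 to 49, so that HBL-2 stood near the JVM lines on one probe set and far from them on another.

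Among the other genes of the cyclin D pathway, CDK6, a kinase partner of the D cyclins, had intensities of 2370.6, 2190.2, 831.4 and 2777.5 on the JVM arrays, against 2.4 to 294 elsewhere. These groups did not overlap on any array, yet the difference of 5.31 ± 1.48 missed the threshold (limma adjusted p = 0.0991), the other 6 lines ranging from 2.6 to 260 among themselves. CDKN2A, the gene of a CDK inhibitor that many mantle cell lymphoma lines have deleted, was low but above the other lines, with 63.3 and 55.3 in JVM-2, 30.2 and 73.7 in JVM-13, and 0.7 to 11.2 in the others. CDKN2A had passed the filter on low values only through JVM arrays, so a difference in this direction was built in. Its difference was 2.90 ± 0.50 (limma adjusted p = 0.0173), and the call was lost without JVM-2 (0.0755), without JVM-13 (0.0602), on the DMSO arrays alone (0.0874) and without HBL-2 and Maver-1 (0.066). CCND3 and CDKN1A also lay above, and CDKN1B below, all other lines as line values, with differences of 0.76 ± 0.33, 2.37 ± 1.57 and -0.48 ± 0.21 and no call. Of 19 genes in the list of mantle cell lymphoma marks, SOX11 and CCND1 were called lower and CDKN2A higher, against 1.75% and 1.46% of all genes. The calls of SOX11 and CDKN2A were built in by the filter on low values and support nothing further. In this list 4 lay above and 3 below all other lines, against 6.96% and 7.87% of all genes. The list's median difference was -0.48 against -0.11 over all genes tested.

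Several marks of the disease did not separate the JVM lines. CD5, the T-cell antigen that mantle cells usually carry, had intensities of 0.6 to 1.2 in the JVM lines, and the others ran from 0.6 to 89.2, so that low CD5 was common to most lines. CD200, a surface glycoprotein often used to tell chronic lymphocytic leukaemia from mantle cell lymphoma, read 222.7 and 74.7 in JVM-2 and 201.5 and 862.7 in JVM-13, and GRANTA-519 at a line value of 228 was within that range while the other 5 lines were at 2.35 or below. LEF1, a Wnt pathway transcription factor, split the pair, with 5.2 and 3.8 in JVM-2 against 483.9 and 570.6 in JVM-13 and 409.2 to 2927.4 in the others. None of the 15 tested genes of a list associated with SOX11 passed the threshold. LGALS3BP lay above and PDGFA and PRDX2 below all other lines, against 6.96% and 7.87% of all genes. ROR1, an orphan receptor kinase typical of chronic lymphocytic leukaemia and mantle cell lymphoma, was called lower, at 0.6 to 2.5 in the JVM lines against 38.3 to 419.1 with a median of 220 in the others (difference -5.38 ± 0.64, limma adjusted p = 0.00283). It had passed the filter on low values only through the other lines, so a difference in this direction was built in. The other 13 tested genes of the chronic lymphocytic and prolymphocytic leukaemia list were not called.

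**Figure D1:**
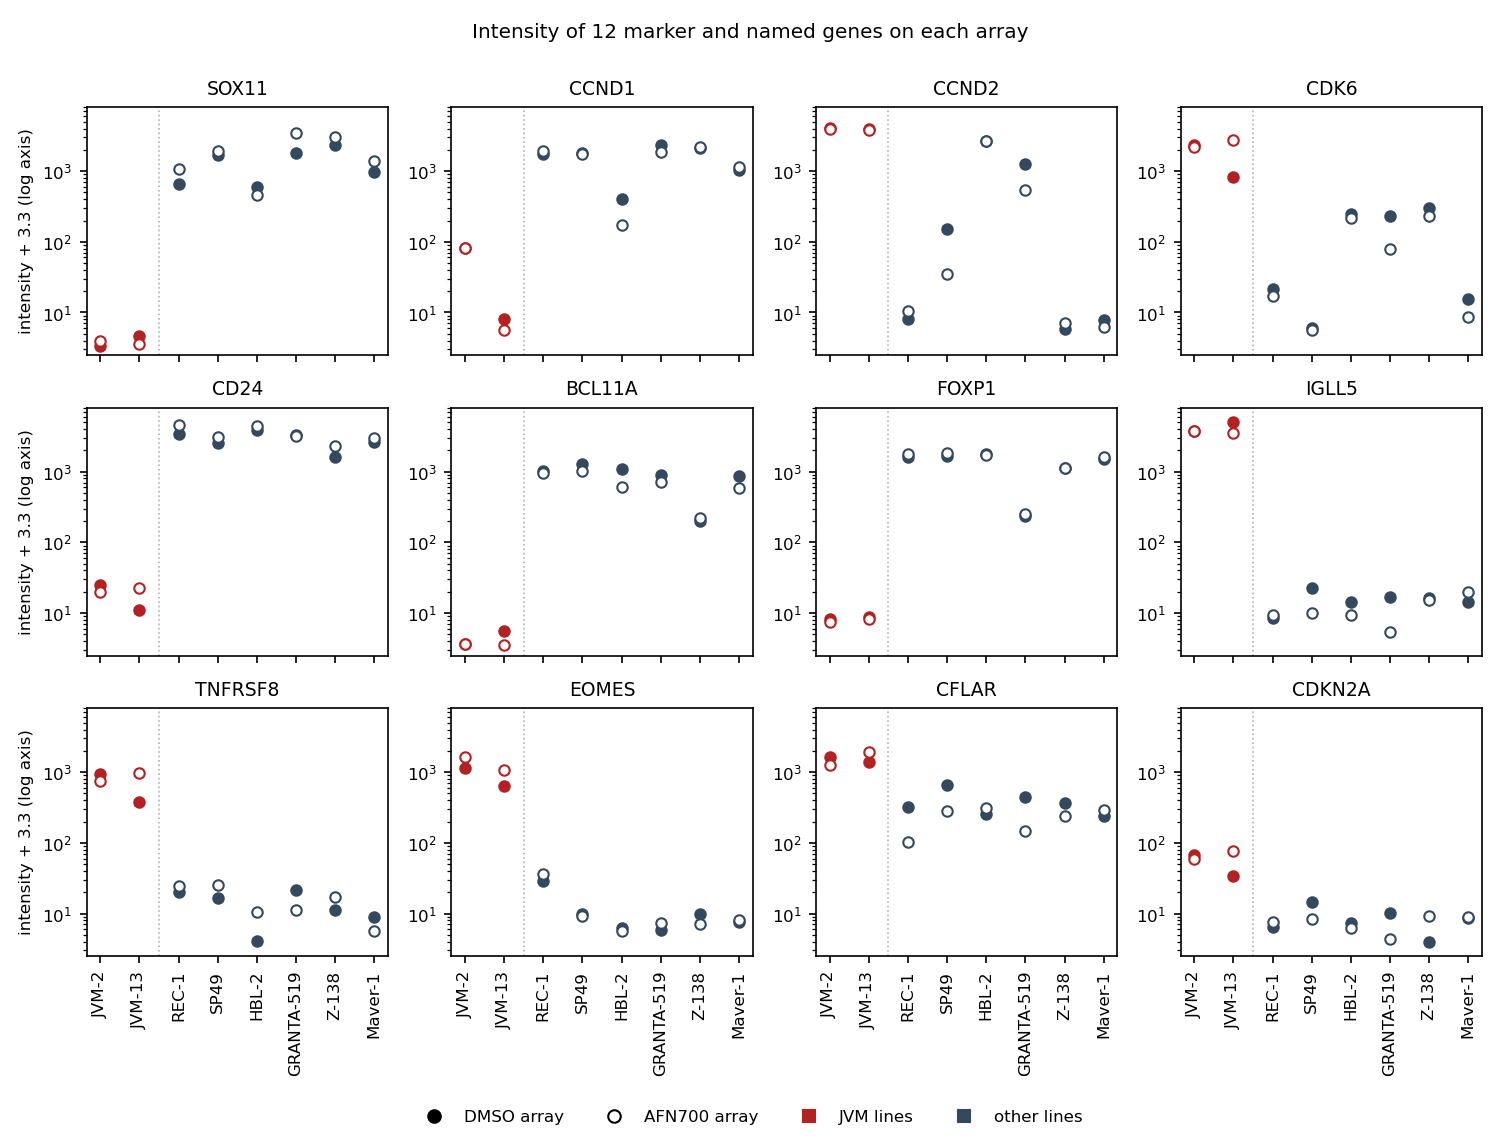
Intensity plus 3.3 (vertical, log axis) of 12 genes on each of the 16 arrays, by cell line (horizontal). Filled points are DMSO arrays, open points AFN700 arrays, red the JVM lines and dark blue the other lines, left and right of the dotted line. SOX11, CD24, BCL11A and FOXP1 are near the floor in the JVM lines only, while CCND2 in HBL-2 and GRANTA-519 comes close to the JVM lines.

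The 12 genes with the widest gap below were RUBCNL, SOX11, CD24, ZEB2, PRKD3, BCL11A, RBMS1, PTPRS, FOXP1, DTX1, JAZF1 and ZNF558, with JVM line values of 0.3 to 18.8 and other line values of 196 to 4090. They were chosen for that gap, which ran from 4.66 to 7.41 on the log2 scale and is given as a description. Genes chosen for such a gap had to be called, so the fitted values below describe its size and support nothing further. RUBCNL, which encodes an autophagy factor, read 1.5 to 4.2 in the JVM lines and 817.4 to 3013.8 in the others (difference -8.22 ± 0.46, limma adjusted p = 3.07e-05). CD24, a surface glycoprotein of developing and mature B cells, read 21.7 and 16.3 in JVM-2, 7.8 and 19.0 in JVM-13 and 1587.4 to 4541.7 in the others (-7.35 ± 0.31, adjusted p = 1.29e-05). All 6 CD24 probe sets placed the JVM lines on the low side.

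Transcription factors with known roles in B cells made up part of this group. BCL11A, needed for early B-cell development, read 0.3 and 0.3 in JVM-2 and 2.3 and 0.2 in JVM-13, against 198.6 to 1281.6 with a median of 868.4 in the others (-7.43 ± 0.60, limma adjusted p = 0.00045). FOXP1, a forkhead factor that acts in B-cell development, read 4.2 to 5.6 in the JVM lines and 228.7 to 1847.1 in the others (-7.13 ± 0.72, adjusted p = 0.0014). The JVM lines were lower on all 4 BCL11A and all 8 FOXP1 probe sets. ZEB2, a zinc-finger repressor, read 2.3 to 8.4 against 451.5 to 902.1 (-6.58 ± 0.33, adjusted p = 1.88e-05). DTX1, a regulator and target of Notch signalling, read 4.0 to 6.1 against 185.7 to 2228.9 (-6.93 ± 0.73, adjusted p = 0.00151).

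The remaining genes were of other kinds. PRKD3, a kinase of the protein kinase D family, read 10.1 and 9.0 in JVM-2 and 35.7 and 5.8 in JVM-13, against 1017.3 to 1589.8 in the others (-6.42 ± 0.28, limma adjusted p = 1.29e-05). RBMS1, an RNA-binding protein, read 8.6 to 27.7 against 710.2 to 1488.1 (-5.84 ± 0.32, adjusted p = 2.95e-05). PTPRS, a receptor tyrosine phosphatase, read 1.0 to 6.8 against 195.9 to 2277.5, and 3 of its 4 probe sets placed the JVM lines below all others. JAZF1 and ZNF558, both zinc-finger proteins, had differences of -5.79 ± 0.47 and -5.68 ± 0.41. In 2 of these genes GRANTA-519 was the other line closest to the JVM lines by a wide margin, at 240 for FOXP1 and 236 for DTX1.

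**Figure D2:**
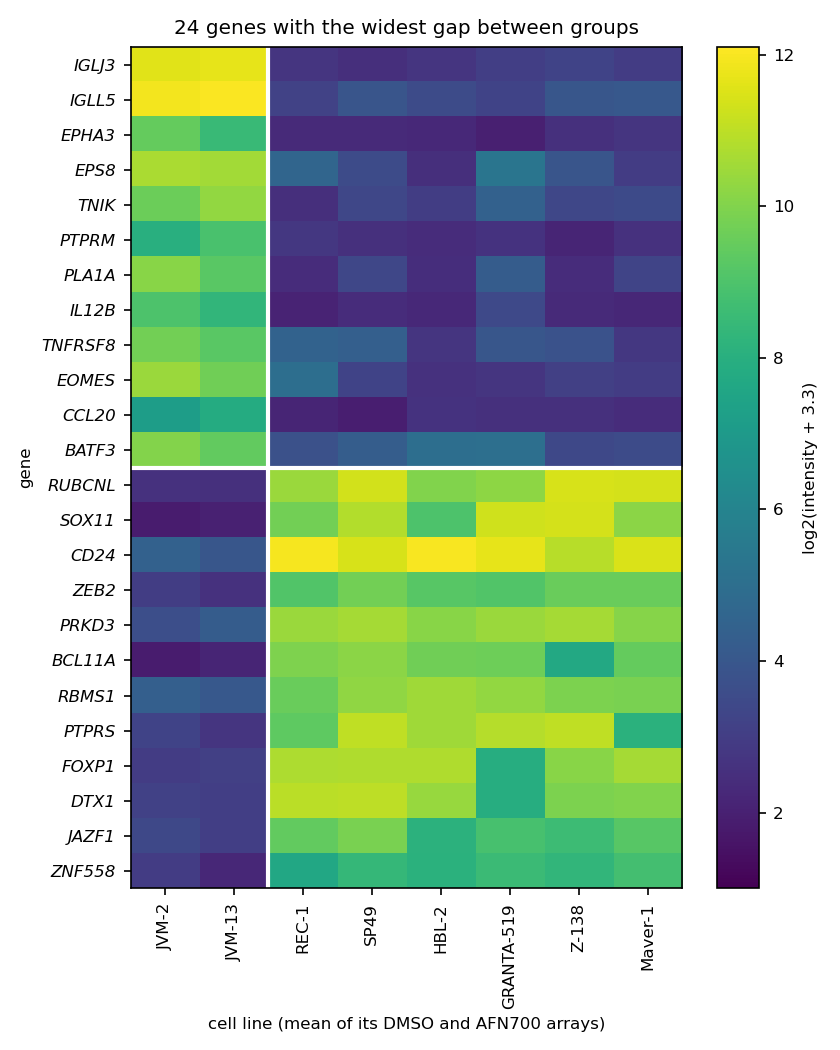
Line values of log2(intensity + 3.3), the mean of a line's DMSO and AFN700 arrays, as a colour scale for the 24 genes with the widest gap. Columns are cell lines, JVM-2 and JVM-13 left of the white line, and rows are genes, the 12 higher in the JVM lines on top. Each row changes colour at the white line because the genes were chosen for it. The green to teal cells of GRANTA-519 for FOXP1 and DTX1 and of Z-138 for BCL11A show other lines that came nearest.

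Called genes of B-cell identity were all lower in the JVM lines. Of 34 tested, 7 were called lower, against 1.75% of all genes, and none higher. Below all other lines lay 10, against 7.87% of all genes, and none lay above. The median difference was -0.89 against -0.11 over all genes. The count called lower stayed at 7 with JVM-13 represented by its AFN700 array alone. It was smaller without JVM-13, and 3 without HBL-2 and Maver-1. VPREB3, a protein that associates with immature immunoglobulin chains, read 13.7 and 19.3 in JVM-2 and 17.0 and 30 in JVM-13 against 249.6 to 1573.3 in the others (-4.97 ± 0.59, limma adjusted p = 0.00265). CD72, an inhibitory coreceptor of the B-cell receptor, read 32.5 and 35 in JVM-2, 4.1 and 4.2 in JVM-13 and 150.6 to 719.9 in the others (-4.21 ± 0.67, adjusted p = 0.0118, and 0.0915 without JVM-13). Both JVM lines were below the rest, and JVM-13 was the lower of the pair.

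Signalling and transcription genes of the same list showed smaller gaps. SYK, the kinase that relays the B-cell receptor signal, read 276.1 and 364.5 in JVM-2 and 93.7 and 234.4 in JVM-13 against 519.5 to 1653.5 (-2.21 ± 0.37, limma adjusted p = 0.015, 0.124 without JVM-13 and 0.0806 without HBL-2 and Maver-1). IKZF1, the gene of the lymphoid factor Ikaros, read 982.8 to 1385.6 against 2115.2 to 2971.4, a difference of only -1.03 ± 0.13 that was nevertheless larger than the spread between lines (adjusted p = 0.00431, and 0.168 with the IKZF1 probe set of largest interquartile range). SPIB, an ETS factor, and BANK1, a scaffold of B-cell receptor signalling, were also called lower, with differences of -2.64 ± 0.54 and -6.14 ± 1.17. The SPIB call was lost without REC-1 (adjusted p = 0.0554), SP49 (0.0617), HBL-2 (0.0569), Maver-1 (0.0705), JVM-2 (0.065) or JVM-13 (0.303), on the AFN700 arrays alone (0.0683) and without HBL-2 and Maver-1 (0.116). The BANK1 call was lost without JVM-2 (0.113), JVM-13 (0.185) or HBL-2 and Maver-1 together (0.092), and with a pseudocount 10 times larger (difference -3.39, adjusted p = 0.136). MS4A1, the gene of CD20, had a difference of -0.15 ± 0.13, PAX5 of -0.37 ± 0.43, EBF1 of -0.30 ± 0.28 and CD79A of -0.28 ± 0.42, and none of these lineage genes passed the threshold (adjusted p = 0.579 to 0.75). CD79B lay below all other lines with a difference of -1.92 ± 0.49 and no call (adjusted p = 0.0776).

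Among germinal centre genes, BCL6, BACH2, SMARCA4 and BCL7A lay below all 6 other lines, 4 of 20 tested against 7.87% of all genes, and none lay above. One was called lower, against 1.75% of all genes. It was BCL7A, a subunit of chromatin remodelling complexes, at 36.5 to 112.1 against 139.3 to 666.4 (-2.38 ± 0.53, limma adjusted p = 0.0471), and this call was lost in 14 of 21 alternatives, with adjusted p-values up to 0.23, including every fit without 1 line other than REC-1. BACH2, a repressor that holds B cells back from plasma cell fate, read 1.4 and 4.7 in JVM-2, 12.5 and 20.8 in JVM-13 and 35.6 to 629.6 in the others (-4.47 ± 1.05, adjusted p = 0.0572). BCL6, the master repressor of the germinal centre, had a difference of -3.54 ± 1.13 without a call. Of 19 plasma cell and post germinal centre genes, 2 were called higher, against 1.46% of all genes, and 5 lay above all others, against 6.96%. AHR, a ligand-activated transcription factor, read 491.1 and 350.9 in JVM-2 and 572.7 and 459.7 in JVM-13, against 0.8 to 59.8 with a median of 1.6 in the others (5.98 ± 0.99, adjusted p = 0.0136), and the call was lost without JVM-2 (0.0801) or JVM-13 (0.109). ELL2, an elongation factor of plasma cells, read 2465.7 to 4068.5 against 206 to 1458.8 (2.65 ± 0.51, adjusted p = 0.0266), and its call was lost without JVM-2 (0.0918), JVM-13 (0.222), SP49 (0.0537) or Z-138 (0.0505), and on the DMSO arrays alone (0.055). The plasma cell regulators PRDM1 and XBP1 had differences of 1.09 ± 0.56 and 0.49 ± 0.50, neither called.

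The 12 genes with the widest gap above were IGLJ3, IGLL5, EPHA3, EPS8, TNIK, PTPRM, PLA1A, IL12B, TNFRSF8, EOMES, CCL20 and BATF3. Their JVM line values were 142 to 4205 and their values in the other lines 0.55 to 36.6, with gaps of 4.37 to 8.34 on the log2 scale, again given as a description. Genes chosen for such a gap had to be called, so the fitted values below describe its size and support nothing further. Immunoglobulin lambda transcripts led the group. The IGLJ3 probe set read 3095.2 and 3044 in JVM-2 and 3851.5 and 2885.6 in JVM-13, against 1.3 to 6.3 elsewhere (8.78 ± 0.41, limma adjusted p = 1.66e-05). IGLL5, an immunoglobulin lambda-like gene next to the lambda constant region genes, read 3538.5 to 4996.8 against 2.0 to 19.4 (8.31 ± 0.42, adjusted p = 1.88e-05).

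These lambda values carry a limit of the array. Lambda genes are near-identical copies, and the probe sets can share targets, so the transcript behind each value is uncertain. Only 1 of 5 IGLJ3 probe sets placed both JVM lines on the high side. Of the IGLC1 probe sets, one read 4708.7 to 7504 in the JVM lines and 2.1 to 13.8 in the others, while the brightest one on average read 4117.2 to 6058.8 and 2800.3 to 4921.6 (0.22 ± 0.18, adjusted p = 0.542). Lambda signal was thus high in all 8 lines on the brightest probe set, and a subset of probe sets was high in the JVM lines alone. Such restriction was not particular to the JVM lines. One IGLJ3 probe set read 4261.7 and 4368.1 in SP49 and another 3979.6 and 3979.2, against 0.4 to 12.2 on the JVM arrays. Heavy chain IGHM was high everywhere, with a difference of -0.22 ± 0.21. IGKC, the kappa constant gene, read 187.8 and 224.7 in JVM-2, 7.3 and 0.7 in JVM-13 and 0.4 to 4060.1 in the others. IGLJ3 was the only 1 of 11 tested genes of the immunoglobulin list to be called, against 3.21% of all genes.

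Of the rest, EPHA3, an ephrin receptor kinase, read 653.3 and 761.7 in JVM-2 and 199.8 and 667.3 in JVM-13, against 0.3 to 4.3 in the others (6.63 ± 0.50, limma adjusted p = 0.000272), although 1 of its 3 probe sets showed this separation. EPS8, an actin regulator downstream of receptor kinases, read 1202.6 to 1850.2 against 1.8 to 50.8 (6.81 ± 0.72, adjusted p = 0.00161). TNIK, a kinase that acts in Wnt signalling, read 717.1 to 1296.9 against 1.3 to 26.5, and all 4 of its probe sets separated the groups. PTPRM, a receptor tyrosine phosphatase of cell contacts, and PLA1A, a phospholipase that cleaves phosphatidylserine, had differences of 5.93 ± 0.49 and 6.69 ± 0.62.

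The other members were TNFRSF8, IL12B, CCL20, EOMES and BATF3. TNFRSF8, the gene of CD30, a TNF receptor of activated lymphocytes, read 954.1 and 752.7 in JVM-2 and 377.8 and 971.7 in JVM-13, against 0.8 to 22.1 with a median of 10.7 in the others (5.80 ± 0.60, limma adjusted p = 0.00143). IL12B, a secreted cytokine subunit, read 926.8 and 278.9 in JVM-2 and 143.5 and 689.2 in JVM-13 against 0.2 to 17.1 (6.20 ± 0.55, adjusted p = 0.000654). CCL20, a chemokine, had the most uneven JVM values, 445.9 and 44 in JVM-2 and 148.5 and 331.4 in JVM-13, against 0.5 to 4.6. EOMES, a T-box factor best known from T and NK cells, read 640.1 to 1644.3 against 2.3 to 33.4 (6.79 ± 0.68, adjusted p = 0.00137). BATF3, a factor of the AP-1 family, read 461.4 to 1272.5 against 5.3 to 66.4 (5.56 ± 0.58, adjusted p = 0.00147). Of other T and NK genes, CD3D, CD3E and CD3G were at 5.3 or below on every JVM array, while TBX21 read 39.4 to 440.7 in the JVM lines and 0.4 to 211.6 in the others, PRF1 71.2 to 541.5 and 5.8 to 796.6, and GATA3 7.3 to 185.4 and 2.4 to 144.6. The part of other cells in the EOMES values was not tested.

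Of the genes that EBV latency and its protein LMP1 are known to induce, about as many lay above all other lines in both JVM lines as did not. Of 43 tested, 21 lay above all 6 other lines against 6.96% of all genes, 1 lay below, 37 had a positive difference, and the median difference was 1.53. The lists were drawn up with earlier results of these data known, so this count is no independent support of a direction. Only TNFRSF8, CFLAR and CD58 were called higher, against 1.46% of all genes, and none lower. With GRANTA-519 left out 10 were called higher, and fewer were called without JVM-13. CFLAR, an inhibitor of death receptor signalling, read 1612.2 and 1278.5 in JVM-2 and 1375.1 and 1953.8 in JVM-13, against 98.6 to 665 with a median of 285.9 in the others (2.47 ± 0.33, limma adjusted p = 0.00512). Its call was lost without JVM-13, at a difference of 2.38. Of 14 CFLAR probe sets, 13 had a positive difference, but only 6 placed both JVM lines above all others. Another read 31.2 to 73.8 in the JVM lines and 57.1 to 254.3 in the others. CD58, the adhesion ligand of CD2, read 781.8 to 1510.4 against 116.8 to 584.4 (2.48 ± 0.45, adjusted p = 0.0219), and its call was lost without JVM-2 (0.131) or JVM-13 (0.0958) and on the DMSO arrays alone (0.0889).

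The members without a call had wide spreads among the other 6 lines. TRAF1, an adaptor of TNF receptors, read 672.8 and 398.9 in JVM-2 and 116.7 and 1214.6 in JVM-13 against 1.2 to 256 (4.22 ± 0.99, limma adjusted p = 0.0572). The chemokine gene CCL22 read 2365.2 to 3263.6 in the JVM lines and 2.3 to 1489.1 in the others (5.54 ± 1.88, adjusted p = 0.162). EBI3, a cytokine subunit first found as EBV-induced, read 599.1 to 1282.9 against 1.1 to 652.3 (4.87 ± 1.52, adjusted p = 0.134). The costimulatory ligands CD80 and CD86 had differences of 4.41 ± 1.18 and 3.29 ± 0.90, and the actin bundler FSCN1 4.37 ± 1.19. BCL2A1, an antiapoptotic NF-kB target, was high in the JVM lines, at 2688.7 to 3837.3, but reached 3210.9 in the others. GPR183, a migration receptor also induced by EBV, was the 1 member below all others, at 78.8 to 443.2 against 429.2 to 2895.4 (-2.63 ± 0.70, adjusted p = 0.0895).

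GRANTA-519 was also higher than the 5 other lines for most of these genes. Across the 43 genes, the median difference from the 5 other lines was 1.93 for the JVM lines and 1.17 for GRANTA-519. Of the 43, 38 were higher in GRANTA-519 than in those 5, against 6075 of all 12305 genes tested. The JVM lines exceeded GRANTA-519 by a median of 0.49. Within 2-fold of GRANTA-519 were 22 of the 43 genes, against 8935 of 12305 genes tested. Genes at large were not matched to the list in their spread between lines, so these shares do not tell how close the list was to GRANTA-519. Both comparisons share the same 5 lines, and 1 line gives no error of its own. FAS, a death receptor, had line values of 1322 in JVM-2, 1064 in JVM-13 and 933 in GRANTA-519, against 24.8 to 60.8 in the other 5. TNFRSF8 did not follow this, with GRANTA-519 at 12.2 among the low lines. Over the whole array, GRANTA-519 was the other line nearest to the JVM lines for 274 of the 857 genes above and 267 of the 968 below, the other lines each accounting for 80 to 149 and 84 to 195. GRANTA-519 was also the only line grown in DMEM, and the part of the medium in these values was not tested.

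**Figure D3:**
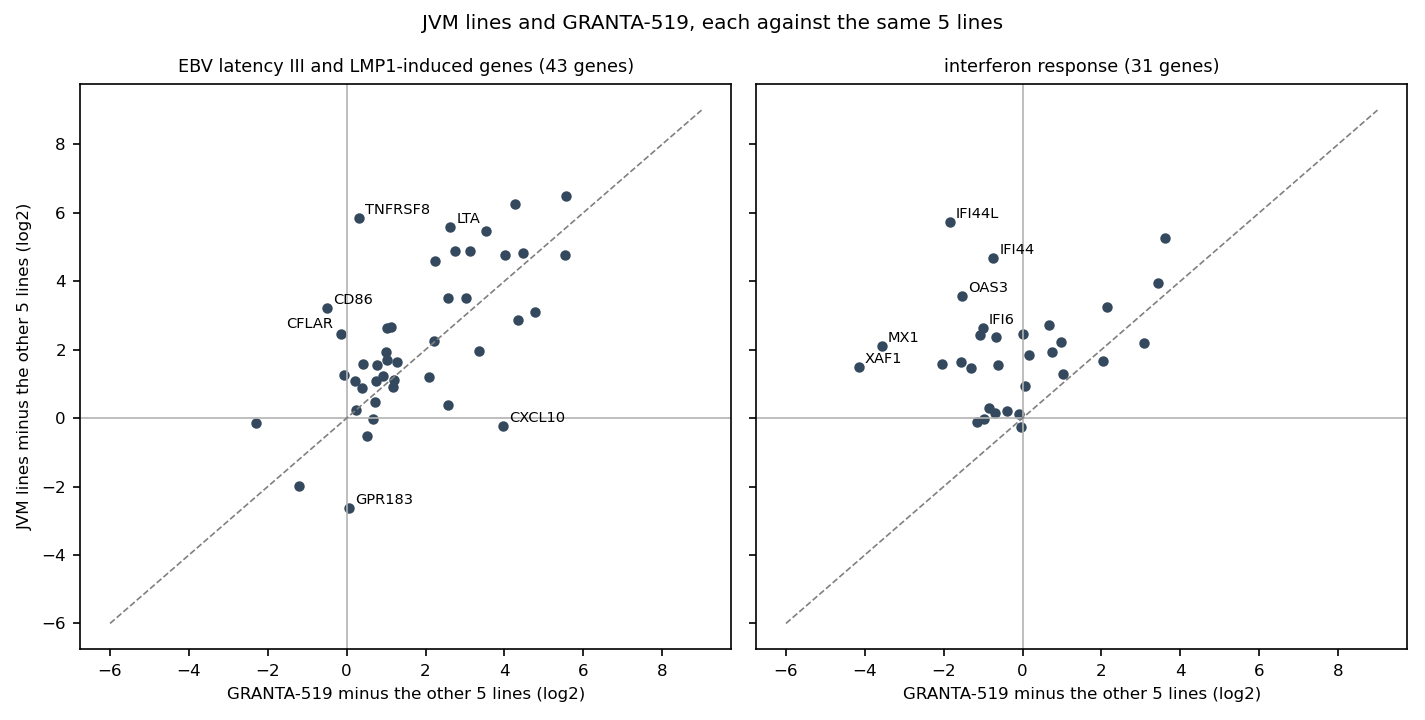
Log2 difference of the JVM lines (vertical) and of GRANTA-519 (horizontal) from the mean of the same 5 other lines, 1 point per gene, for 43 EBV and LMP1-induced genes (left) and 31 interferon response genes (right). On the dashed line the JVM lines and GRANTA-519 are equal. Left, 38 of 43 genes are positive for GRANTA-519, and right 11 of 31.

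RefSeq promoters were searched because these genes were high together and LMP1 acts through NF-kB. The letters GGANTTTCC, a core of the NF-kB site, on either strand, occurred in the 250 bases before the start of 2 of the 19 promoters found for the 21 genes above all other lines (10.5%), against 1.54% of 10050 tested genes and 1.47% of all 27305 promoters. The 2 are NFKB1 and NFKBIA, a subunit and the main inhibitor of NF-kB. The letters TGGGAA, the core bound by RBPJ, through which EBV's EBNA2 reaches DNA, occurred in 36.8% of the 19, 19.4% of the tested genes and 21.1% of all promoters, and the match in NFKB1 shares letters with the NF-kB match. Neither NFKB1 nor NFKBIA passed the threshold. NFKB1 read 618.3 and 565.3 in JVM-2 and 585 and 508.8 in JVM-13 against 163.8 to 605 in the others (0.82 ± 0.33, limma adjusted p = 0.227). NFKBIA read 933.8 and 493.3 in JVM-2 and 466.9 and 1295.6 in JVM-13 against 94.7 to 912.3 (1.08 ± 0.47, adjusted p = 0.263). A match is a description of letters, and its absence in the other 17 says only that these letters are not in the window. The 2 promoters are printed because they hold the matches, in GRCh38.p14, 5' to 3' on the gene's strand, with the NF-kB letters in capitals. The NFKB1 match begins 48 bases upstream of the start, and the NFKBIA matches begin 242 and 81 bases upstream.
NFKB1 promoter, chr4:102501109-102501358, plus strand: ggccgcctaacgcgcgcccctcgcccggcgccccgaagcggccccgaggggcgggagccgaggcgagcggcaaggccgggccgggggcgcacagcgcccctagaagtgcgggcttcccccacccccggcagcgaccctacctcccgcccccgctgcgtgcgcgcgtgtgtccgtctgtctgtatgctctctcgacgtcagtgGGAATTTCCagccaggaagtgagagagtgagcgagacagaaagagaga
NFKBIA promoter, chr14:35404750-35404999, minus strand: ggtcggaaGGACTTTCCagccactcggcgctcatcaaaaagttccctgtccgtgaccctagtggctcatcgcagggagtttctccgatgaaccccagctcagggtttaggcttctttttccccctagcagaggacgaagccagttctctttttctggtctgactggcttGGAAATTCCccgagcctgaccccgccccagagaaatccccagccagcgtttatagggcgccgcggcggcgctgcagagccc
Among the 12 genes of the widest gap above and the 12 below, 8 and 9 had a promoter in the table, and none held the NF-kB letters.

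Interferon response genes were also mostly higher in the JVM lines, and GRANTA-519 did not share most of these values. Of 31 tested, 30 had a positive difference, 8 lay above all 6 others against 6.96% of all genes, none lay below, and the median difference was 1.90. IFI44L, an interferon-induced gene, was the single one called, against 1.46% of all genes called higher. It read 1327.6 and 1327.4 in JVM-2 and 385.2 and 776.3 in JVM-13 against 0.2 to 259.8 with a median of 3.5 in the others (6.03 ± 1.32, limma adjusted p = 0.0445). That call was lost in 12 of 21 alternatives, among them every fit without 1 line other than SP49, with adjusted p-values up to 0.205. The related gene IFI44 read 820.7 to 1219.6 against 3.3 to 325.2 (4.81 ± 1.30, adjusted p = 0.0924). GBP1, an interferon-induced GTPase, read 152.3, 143.4, 232.5 and 940.2 on the JVM arrays and 0.7 to 162.4 on the others (4.67 ± 1.10, adjusted p = 0.0567), so single arrays overlapped. The JVM lines exceeded GRANTA-519 by a median of 1.66 over the list, and GRANTA-519 was higher than the 5 other lines in 11 of 31. Whether the interferon list differs from the EBV list in this respect was not tested.

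No antigen presentation gene was called. Of 16 class I presentation genes, 14 had positive differences with a median of 0.35. HLA-B, HLA-F, B2M, TAPBP and PSMB8 lay above all other lines without a call, 5 of 16 against 6.96% of all genes. That count was 2 after quantile normalization and 8 with each array centred on its median. B2M, the light chain of class I molecules, read 5175.6 to 6310 in the JVM lines and 3249.3 to 4858.4 in the others (0.34 ± 0.10, limma adjusted p = 0.124). Of 16 class II presentation genes none was called, and CIITA, the class II transactivator, lay below at 34.6 to 164.2 against 168.8 to 826.3 (-1.60 ± 0.53, adjusted p = 0.154). HLA-DOB, part of a modulator of class II peptide loading, read 41 and 51.9 in JVM-2 and 19.8 and 74 in JVM-13 against 68.7 to 741.6 (-1.83 ± 0.60, adjusted p = 0.151), the other gene of the 16 below all other lines, against 7.87% of all genes. The lowest CIITA value was that of the JVM-13 DMSO array.

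TNF receptor family, adhesion and cytokine genes each had called members, and the shares over all genes to set beside their counts are 1.46% called higher, 1.75% called lower and 6.96% above all other lines. TNFSF13B, the gene of the B-cell survival factor BAFF, read 285.7 and 301.8 in JVM-2 and 109.1 and 222.3 in JVM-13 against 5.9 to 74.6 (3.39 ± 0.69, limma adjusted p = 0.0332), and this call was lost in 9 of 21 alternatives, with adjusted p-values up to 0.176, among them the fits without REC-1, HBL-2, Z-138, Maver-1, JVM-2 or JVM-13. Together with TNFRSF8 it made 2 of 26 called in its list, with 6 above all other lines. LTA, lymphotoxin alpha, read 495.7 to 1019.7 against 0.4 to 188.1 without a call (5.14 ± 1.22, adjusted p = 0.0581). VCAM1, an integrin ligand usually found on endothelium and stromal cells, read 418.4 and 174.4 in JVM-2 and 349.6 and 869.5 in JVM-13 against 0.6 to 98.7 (5.68 ± 0.72, adjusted p = 0.00387). It and CD58 were the 2 of 28 adhesion and costimulation genes called. IL2RB, a receptor chain for interleukin signals, read 480 to 1180.2 against 2.8 to 74.2 (5.61 ± 0.93, adjusted p = 0.0143), and its call was lost without JVM-2 (0.0974) or JVM-13 (0.0867). TGFBR2, a receptor for TGF-beta, was lower, at 2.1 to 13.3 against 134.7 to 1151.7 (-6.01 ± 0.76, adjusted p = 0.00387). IL12B, IL2RB and TGFBR2 were the 3 of 28 cytokine and receptor genes called.

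Chemokine receptor and homing genes went both ways. RGS2, a brake on G protein signalling, read 26.1 and 46.5 in JVM-2 and 26.3 and 39.4 in JVM-13 against 350 to 2438.3 (-4.37 ± 0.43, limma adjusted p = 0.00124). GPR18, an orphan receptor of lymphocytes, read 119.4 and 143 in JVM-2, 3.5 and 9.4 in JVM-13 and 1339.6 to 3898.7 in the others (-5.87 ± 0.81, adjusted p = 0.0056). These were the 2 of 21 called, both lower, against 1.75% of all genes. RGS16, with a difference of 2.44 ± 0.58, was among 5 above all others without a call, against 6.96% of all genes. HRK, a proapoptotic gene, was called lower at 0.5 to 4.4 against 15.5 to 395.7 (-4.45 ± 0.75, adjusted p = 0.0147), and its call was lost without JVM-2 (0.0926) or JVM-13 (0.0882). With CFLAR it made 2 of 26 cell death genes called, against 3.21% of all genes called in either direction. BCL2 itself had a difference of -0.86 ± 0.43. In the Notch and Wnt list, DTX1, ROR1 and the Wnt receptor FZD3 were called lower, 3 of 23 against 1.75% of all genes. All 3 had passed the filter on low values only through arrays of the other lines, and DTX1 was also chosen for its gap. A difference in this direction was therefore built in, and the count supports nothing further. None of the 23 was called higher, and the median difference was -0.98 against -0.11 over all genes. FZD3 read 1.3 to 7.5 against 33.1 to 416.8 (-4.63 ± 0.80, adjusted p = 0.0167), and its call was lost without JVM-2 (0.0974) or JVM-13 (0.103) and with the larger pseudocount (0.07). HRK also lost its call with the larger pseudocount (0.0865) and with its probe set of largest interquartile range (0.0705). Without HBL-2 and Maver-1 together, the calls of AHR, CD58, CD72, CDKN2A, FZD3, HRK and IL2RB were lost, with adjusted p-values of 0.066 to 0.0806, as were those of SYK (0.0806), BANK1 (0.092), SPIB (0.116), TNFSF13B (0.1), IFI44L (0.151), BCL7A (0.159), CLEC7A (0.0882) and KRT7 (0.119).

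Proliferation genes gave counts to be read beside the small shares over all genes. None of 32 was called, against 3.21% of all genes, so the absence of calls is near that share. The median difference was -0.12 against -0.11 over all genes. MCM7 was the 1 gene below all other lines, against 7.87% of all genes, and none lay above, against 6.96%. The cyclin gene CCNB1 read 2011.5, 1677.2, 385.7 and 2052.7 on the JVM arrays, with the low value on the JVM-13 DMSO array, and 1316.2 to 2376.2 on the others. With JVM-13 represented by its AFN700 array alone the median was 0.14, and 25 of 32 differences were positive against 10 in the full data.

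**Figure D4:**
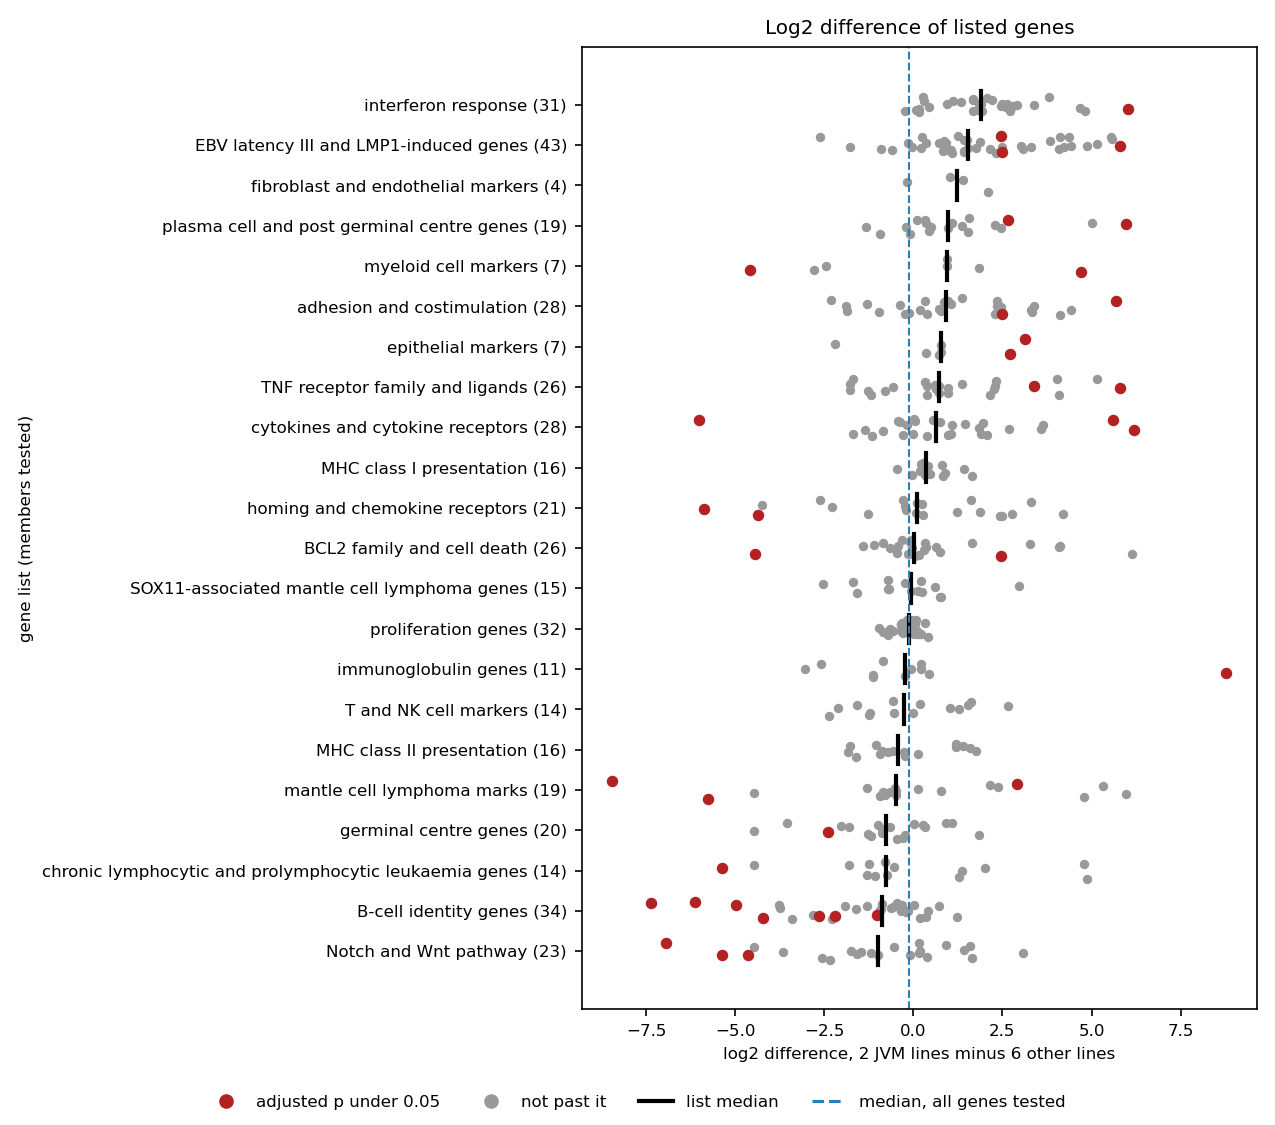
Log2 difference of the JVM lines from the 6 other lines (horizontal) for every tested member of 22 gene lists (vertical, members tested in brackets), 1 point per gene, red where the adjusted p is under 0.05. Black bars are list medians and the blue dashed line the median over all genes tested, -0.11. Interferon and EBV lists have the highest medians, 1.90 and 1.53, and the Notch and Wnt list the lowest, -0.98.

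Markers of other cell types were not all low. Intensities stayed below 30 on all 16 arrays for 8 of 22 T and NK, 9 of 17 myeloid, 6 of 14 epithelial, 10 of 15 fibroblast and endothelial and 8 of 10 erythroid and megakaryocyte genes. Of 17 myeloid genes measured, MNDA was called higher, at 310.9 to 609 against 0.7 to 141.6 (4.70 ± 1.05, limma adjusted p = 0.0466), and CLEC7A lower, at 0.3 to 5 against 27.6 to 986.4 (-4.57 ± 0.93, adjusted p = 0.0337). The defining myeloid genes CD14 and MPO were at 4.9 or below on every JVM array, while VCAN reached 412.7, ITGAM read 38.9 to 76.8 and CSF1R 8.8 to 31.6. In the other lines VCAN reached 200.3, ITGAM 249.5 and CSF1R 9.6. The MNDA call was lost in 11 of 21 alternatives, among them every fit without 1 line other than Maver-1, and the CLEC7A call in 7, among them the fits without REC-1, HBL-2, Z-138, JVM-2 or JVM-13. Of 14 epithelial genes, KRT7 and ELF3 were called higher at intensities of 38.1 to 77.1 and 40.6 to 116.5, with EPCAM at 5 or below, and the KRT7 call was lost in 11 alternatives, among them every fit without 1 line other than GRANTA-519, and the ELF3 call without JVM-13 (adjusted p = 0.0601). Over all genes tested, 1.46% were called higher and 1.75% lower. KRT7 and ELF3 had passed the filter on low values only through JVM arrays, and CLEC7A only through the other lines. The direction of those calls was therefore built in. The part of these marker genes in the results was not tested. Summed intensities were 554 to 1111 on the JVM arrays and 174 to 1606 on the others for the myeloid list, and 288 to 453 against 132 to 632 for the epithelial list. The T and NK list summed to 519.9 to 1151.5 against 199.4 to 1554.5, and the fibroblast and endothelial list to 173.6 to 488.6 against 57.5 to 1231.8. None of the 14, 4 and 1 genes tested in the T and NK, fibroblast and endothelial, and erythroid lists was called.

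JVM-2 and JVM-13 resembled each other more than either resembled any other line. Across the tested genes their line values correlated with r = 0.895, close to the highest pair, Z-138 and Maver-1, at 0.898, and their correlations with the other lines ran from 0.744 (JVM-2 with REC-1) to 0.835 (JVM-13 with GRANTA-519). These are correlations across genes on arrays of 1 design, given as a description. Between the pair, 581 genes differed at least 4-fold with over 100 on the higher side, 396 higher in JVM-2 and 185 in JVM-13. With 1 line on each side this has no replicate check, and the JVM-13 DMSO array, low in its median, enters it. CCND1, LEF1, CD72 and GPR18, described above, were members or marks in which the 2 differed by a wide margin on both of their arrays.

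The 24 genes of the widest gap were chosen on the mean of both treatments, so a large contrast under each was built in. Their values by treatment are given as a description. On the DMSO arrays alone the 12 genes above had differences of 5.13 to 8.76 and on the AFN700 arrays of 4.77 to 8.79. The 12 genes below ran from -8.21 to -5.49 with DMSO and from -8.68 to -5.50 with AFN700. For the 24 genes the contrast moved by 0.005 to 1.10 between treatments. These are group means, in which the 2 JVM lines can cancel. The responses of JVM-2 and JVM-13 were opposite for CCL20 (-3.25 and 1.14) and IL12B (-1.72 and 2.24). They had the same sign for EOMES (0.53 and 0.73). A test of the difference in AFN700 response between the 2 JVM lines and the 6 others called no gene of 12305 (0%) at an adjusted p under 0.05 (limma), with a smallest adjusted p of 0.356 and 1639 genes at an unadjusted p under 0.05. Without JVM-2, where JVM-13 alone stood for the group, 3395 genes were called, and the low DMSO array of JVM-13 enters each of them.

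The response genes of smallest p show how far single arrays carry such values. IER5L, an immediate early response gene family member, read 8.6 and 0.7 in JVM-2 and 20.1 and 1.1 in JVM-13 (DMSO, then AFN700), a mean response of -1.99 against 0.76 in the other lines, and the other lines read 0.8 to 43.3 with a median of 14.6. ARPC1B, a subunit of the actin-nucleating complex, went from 1070 to 1333.6 in JVM-2 and from 425.5 to 912.2 in JVM-13, a mean response of 0.71 against -0.58. The LOC728743 transcript went from 24.4 to 15.1 and from 73.2 to 16.9, a mean of -1.26 against 0.94. AATBC went from 2.9 to 16.8 in JVM-2 and from 29.2 to 82.4 in JVM-13, and ASB16-AS1 from 67.9 to 147.2 and from 22.8 to 98.8, with response differences of 2.11 and 1.67. The ALMS1-IT1 transcript differed between treatments in the size of its group contrast, 2.79 with DMSO and 0.62 with AFN700, the JVM-13 DMSO array reading 811.7 against 123.8 after AFN700. None of these differences in response passed the threshold (limma adjusted p = 0.356 for each).

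**Figure D5:**
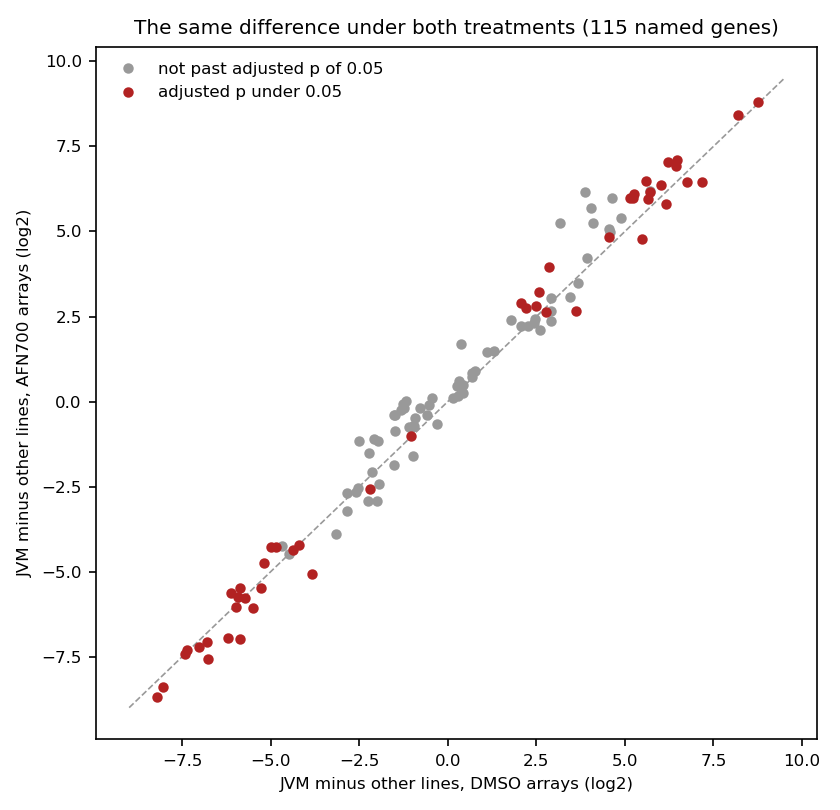
Log2 difference of the JVM lines from the other 6 lines on the DMSO arrays (horizontal) and on the AFN700 arrays (vertical), 1 point per gene for 115 named genes, red where the adjusted p of the averaged difference is under 0.05. Points on the dashed line have the same difference under both treatments, and the 24 genes of the widest gap lie within 1.10 of it.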

How the data were processed

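RNA of 8 cell lines was measured on 16 Affymetrix expression arrays, 1 per line and treatment. The authors deposited linear intensities for every probe set. The submitters' processing notes name MAS5, and its version is not given in the sources used here. Each array's mean after trimming 2% from each end is 150. The number of arrays limits the precision, and values near the floor have no reliable order.

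Of 54675 probe sets, 41091 had 1 gene in the platform table, 1801 had several and 11777 were not listed, and the last 2 kinds and 62 control probe sets were left out. Symbols were updated by Entrez number through RefSeq for 41037. The brightest probe set on average stood for each of 19775 genes. Genes entered the test when 2 or more arrays put them over the 60th percentile of that array. The pseudocount of 3.3 is the 25th percentile of all values. No further normalization was applied. limma 3.58.1 in R 4.3.3 (lmFit, eBayes with a trend) was fitted to 8 line values with 6 residual degrees of freedom, and to 8 within-line differences for the response. It was tested on simulated data. Figures were drawn with matplotlib 3.10.9.

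The members and the 23 gene lists were chosen with earlier results of these data known. The rule for named genes took the 12 per direction of widest gap among those meeting the non-overlap rule, the 3 markers, every measured mantle cell lymphoma mark, for each other list at most 4 members with the lowest p, and 3 response genes per direction. All other genes in the text, such as lineage genes and further list members lying outside the range of the other lines, were chosen after their values were seen. The fit without HBL-2 and Maver-1 was added after the data were seen. Promoters are from RefSeq, GRCh38.p14.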

Additional observations from a re-analysis of the deposited data

Results flagged for a closer look

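Among the 6 other lines, 1 line stood apart from the other 5 for 19 of 115 named genes, by Dixon's gap test on line values. Chance alone flags about 1 in 20 groups. GRANTA-519 was the line apart for 9 of the genes. Its line value was the highest for IL12B (7.76), CD200 (228), AHR (55.8), SLAMF7 (513), VCAM1 (24), FAS (933) and THY1 (62.4), and the lowest for FOXP1 (240) and DTX1 (236).

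REC-1 stood apart for EOMES (29.4, highest), CDKN1A (7.76, lowest), IGLC1 (2994, lowest) and PSMB8 (380, lowest). HBL-2 stood apart for CCND1 (261, lowest) and CDKN2B (47.8, highest). SP49 stood apart for CTSS (362, lowest) and IFI44L (202, highest), Z-138 for BCL11A (206.5, lowest) and Maver-1 for RGS2 (1685, highest).

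The AFN700 response had one sign in both JVM lines and the opposite sign in all 6 other lines for 4 named genes. Of these, ARPC1B, IER5L and LOC728743 had been named for the lowest p of this same difference, so the choice favoured opposite signs. The share of all tested genes with this pattern was not counted, and the 4 are given as a description. The differences in response, JVM lines minus others on the log2 scale, were 1.10 for TNFSF13B (0.54 against -0.56), 1.29 for ARPC1B (0.71 against -0.58), -2.75 for IER5L (-1.99 against 0.76) and -2.20 for LOC728743 (-1.26 against 0.94). None passed the threshold of the limma test of that difference, and the sizes in single lines ran down to 0.0782 (TNFSF13B in JVM-2) and -0.0133 (TNFSF13B in REC-1).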

How the results depend on the processing

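Under the alternatives the counts of genes called higher and lower, 180 and 215 as reported, were 409 and 461 with all 16 arrays and the line as a random block (consensus correlation 0.694), 305 and 392 at an adjusted p under 0.10, 107 and 148 on the DMSO arrays alone, 223 and 139 with a pseudocount 10 times larger, and 71 and 109 without HBL-2 and Maver-1. Leaving out 1 line gave 87 to 250 higher and 93 to 255 lower, 926 to 1810 genes above and 1042 to 2370 below all other lines, with 250 and 255 called without GRANTA-519. For the response it gave 0 to 3395 calls, the highest without JVM-2, and 0 otherwise. An intensity minimum of 50 or 200 gave 953 and 746 genes above and 1167 and 730 below. Of 1008 values of 48 named genes that were called, 909 stayed past the threshold, 99 did not and 0 changed sign, and 30 of the 48 genes kept their call throughout, 24 of the 48 having been chosen for their gap. Genes without a call changed sign in 14 values: CCNB1 on the AFN700 arrays alone (0.012) and with JVM-13 by its AFN700 array only (0.017), CDK4 without JVM-13 (-1.45 to 0.13 over the fits without 1 line), CDKN2B without HBL-2 (-0.67 to 0.053 over such fits) and without HBL-2 and Maver-1 (0.084), MDM2 without JVM-2 (-0.026 to 0.29) and without HBL-2 and Maver-1 (-0.061), and PDIA3 with the probe set of largest interquartile range (-0.19). PDGFRB went to 0.11 on the AFN700 arrays alone, 0.0080 with JVM-13 by its AFN700 array only, 0.13 without GRANTA-519, 0.38 without JVM-2 (-0.72 to 0.38 over such fits), 0.038 without SP49 and 0.035 after quantile normalization. The causes were not tested. Signal over background limits genes near the floor, where intensities have no order. The DMSO and AFN700 arrays of a line were paired within it, and nothing in the labels pairs a JVM line with another line.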
